A study of Mus musculus with 6 samples.

Results

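The genes that make and break down coenzyme A were examined in the liver of mice given trichloroethylene (TCE), a chlorinated solvent. They were chosen by gene symbol: Pank1, Pank2, Pank3, Ppcs, Ppcdc and Coasy for synthesis, and Vnn1, Vnn3, Nudt7 and Nudt19 for breakdown. These 10 genes have 13 of the 55681 different probes on the array that are not controls, and 11 of the 13 probes, for 9 genes, were detected, against 22731 detected probes in all. The mice were male B6C3F1, a hybrid laboratory strain, 7 weeks of age. Control mice received corn oil by gavage, and TCE mice received 1000 mg/kg b.w. of TCE dissolved in corn oil, daily over 5 days. Both groups were thus given corn oil. The study dosed more mice per group than were put on arrays, and 3 control mice and 3 TCE mice were measured. How these were chosen is not stated. Liver RNA of each measured mouse was hybridized to a 1-colour array of its own, and no RNA was pooled.

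Coenzyme A is the carrier on which fatty acids are activated and oxidized, and liver holds it in the cytosol, mitochondria and peroxisomes. Cells make it from the vitamin pantothenate: pantothenate kinases (Pank1, Pank2, Pank3) catalyze the rate-controlling phosphorylation, Ppcs joins cysteine to the product, Ppcdc removes a carboxyl group, and Coasy carries out the closing steps. Nudt7 and Nudt19 are peroxisomal Nudix hydrolases that cleave coenzyme A, and the vanins Vnn1 and Vnn3 split pantetheine, a later breakdown product, into pantothenate and cysteamine, so that pantothenate can be used again. Vnn1 is also known as a target gene of the fatty acid receptor PPARα in liver.

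The probes on which the results turn are given below as the scanner files print them, 5′ to 3′, with coordinates of the array annotation on mm9. The vanin probes are shown because these genes are neighbours whose signals could be mixed if their probes were alike. Where a sequence has 30 letters, it is the start of a probe of 60 bases.
Vnn1: ctgtttgtcaacagtggactcgggtgtaag
Vnn3: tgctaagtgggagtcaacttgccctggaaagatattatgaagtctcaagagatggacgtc

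The Vnn1 probe (A_51_P424532) lies at chr10:23624524-23624583. The Vnn3 probe (A_51_P265374) spans chr10:23587033-23589353, which is 2321 bases of genome for 60 bases of probe, so it crosses a splice junction. The probes are 35170 bases apart. They share no run of more than 6 bases and match at no more than 21 of 60 bases in any alignment without gaps. Only the probes were compared with each other, and whether either could bind the transcript of the other gene was not tested.

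Nudt7 has a pair of detected probes, shown because they gave unequal changes.
Nudt7, spliced probe: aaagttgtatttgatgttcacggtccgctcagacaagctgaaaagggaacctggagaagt
Nudt7, end probe: ctaaaagtctttcaaaactggaaaaatgca

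The spliced probe (A_52_P136914) spans chr8:116660355-116671817, or 11463 bases of genome, and starts at position 239 of its transcript. The end probe (A_55_P1953103) lies at chr8:116676071-116676130, 4253 bases further along, and starts at position 892.

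Pank1 is shown as the synthesis member with the lowest adjusted p, and Coasy because its probes are nearly the same. Capitals mark the bases that both Coasy probes hold within the stretch printed.
Pank1: ggtcgagatatcagttagaaataatggtct
Coasy, probe A_66_P136099: GTTGATGGGTTTGGTGAAGTCTGGACCCag
Coasy, probe A_55_P2117843: gtGTTGATGGGTTTGGTGAAGTCTGGACCC

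The Pank1 probe (A_51_P263591) lies at chr19:34885801-34885860, in reverse order. Among the probes of Pank1, Pank2 and Pank3 no run of more than 7 bases is shared, and their match to each other's transcripts was not tested. The Coasy probes, at chr11:100947876-100947933 and chr11:100947874-100947933, have 58 of 60 bases in common and are a repeat measurement of the same stretch, not independent evidence.

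Between 23538 and 24968 probes per array were well above background, no spot was saturated (0), and Pearson's r over detected probes was no lower than 0.987 within the control group, 0.978 within the TCE group and 0.971 between groups. The array of control mouse 1 shared neither slide nor scan with the other arrays. The scanner intensities were put on the log2 scale and quantile normalized, and each value below is such a log2 intensity of a mouse, in the order of mice 1, 2 and 3. Changes are TCE minus control, fitted with limma (two-sided), with Benjamini-Hochberg adjustment over all 22731 detected probes, and a probe was called at an adjusted p of 0.05 or less with a fold change of 2 or more. At that threshold 1.41% of all detected probes were called, 1.03% higher and 0.383% lower in TCE mice. All 7 hepatocyte markers were detected. Their summed log2 level was 20.47 to 20.50 in control mice and 20.35 to 20.46 in TCE mice, which lay just below. The list was split, with 0 called. Alb (-0.18), Apoa1 (-0.31), Serpina1a (-0.06) and Cps1 (-0.42) were lower in TCE mice, and Ttr (0.14), Ass1 (0.03) and Hnf4a (0.09) higher.

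Vnn1 was the only gene of the 10 that was called, and it rose about 10-fold. No other detected probe of the 10 genes differed by 2-fold or more. In synthesis, 4 of the 5 detected genes (Pank1, Pank2, Ppcs and Coasy) had every TCE mouse above every control mouse, with 0 called. In breakdown, besides Vnn1, the spliced probe of Nudt7 was lower with an adjusted p under 0.05 but short of 2-fold. Over the whole array 15.5% of detected probes had all TCE mice above all control mice and 10.2% had them all below, together 25.7%. For a single probe in 3 against 3 mice, an exact permutation test cannot go below p = 0.1. In bulk liver, a different number of cells of a type and a different amount of RNA per cell cannot be told apart.

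**Figure D1:**
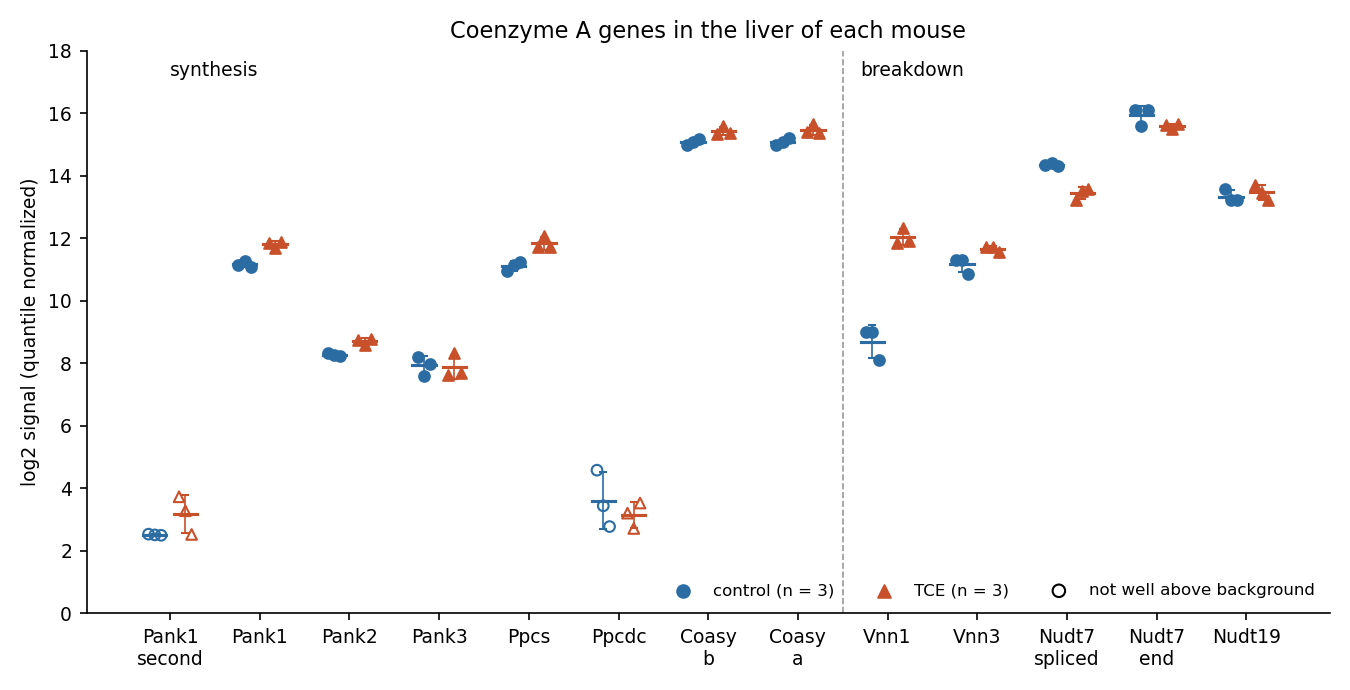
Quantile-normalized log2 intensity of each member probe in each mouse, with control and TCE mice side by side. Points are mice, horizontal bars are group means with SD (n = 3), and open symbols are signals not well above background. Vnn1 lies at 8.09 to 8.99 in control and 11.86 to 12.32 in TCE mice, and the groups of Pank3, Nudt19 and the Nudt7 end probe overlap.

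Of the synthesis genes, the kinases come first in the pathway. Pank1, the kinase known for its abundance in liver, read 11.14, 11.27 and 11.08 in control mice and 11.85, 11.68 and 11.87 in TCE mice. The groups were well apart relative to their spread (11.16 ± 0.09 against 11.80 ± 0.10, SD, n = 3). The fitted change was 0.64 (SE 0.12, 95% interval 0.36 to 0.92), or 1.56-fold, with a limma adjusted p of 0.0578, which does not pass. A second Pank1 probe (A_51_P123320, at chr19:34955719-34955778) read 2.53, 2.50 and 2.49 in control and 3.72, 3.28 and 2.52 in TCE mice. No mouse had a signal well above background on this probe, which was not tested. It lies 69858 bases from the other Pank1 probe and is annotated in forward order, where the other is in reverse order. Whether both probes read the same transcript was not tested.

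Pank2, a kinase found at mitochondria in human cells, read 8.31, 8.27 and 8.24 in control and 8.75, 8.59 and 8.77 in TCE mice. Every TCE mouse was above the control mice. The change was 0.43 (SE 0.11, 95% interval 0.16 to 0.69), or 1.34-fold, with a limma adjusted p of 0.121. Pank3 (A_52_P572197, at chr11:35599745-35599804), a cytosolic kinase strongly inhibited by acyl-CoA, read 8.19, 7.60 and 7.99 in control and 7.64, 8.33 and 7.69 in TCE mice. Its groups overlapped. The change was -0.04 (SE 0.24, adjusted p = 0.947 by limma), with a 95% interval from -0.63 to 0.55 that leaves room for a change of the size seen for Pank2, and without control mouse 1 its sign turned (0.088). The change of Pank1 minus that of Pank3, a pair chosen after the data were seen, was 0.68. The exact permutation test over the 20 ways to choose 3 of 6 mice gave p = 0.2 (adjusted p = 0.25 over 5 pairs of probes). As 0.1 is the smallest p it can give, this test cannot decide whether Pank1 and Pank3 differ.

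Ppcs (A_55_P2166990, at chr4:119091138-119091194), which adds cysteine to phosphopantothenate, had the largest change in synthesis. It read 10.95, 11.14 and 11.25 in control and 11.71, 12.08 and 11.73 in TCE mice. Its lowest TCE mouse was above its highest control mouse. The change was 0.73 (SE 0.15), or 1.66-fold (95% interval 1.28 to 2.14), with a limma adjusted p of 0.0804. Ppcdc (A_52_P409457, at chr9:57261009-57261068), the decarboxylase that follows, read 4.58, 3.44 and 2.77 in control and 3.20, 2.71 and 3.52 in TCE mice. No mouse had a Ppcdc signal well above background, so the gene has no fold change here and this step of the pathway was not measured.

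Coasy, the bifunctional enzyme at the end of the pathway, read 14.99, 15.07 and 15.20 in control and 15.41, 15.64 and 15.35 in TCE mice with probe A_66_P136099. The other probe gave 14.99, 15.09 and 15.18 in control and 15.35, 15.58 and 15.37 in TCE mice. On both probes the TCE mice lay above the control mice. The changes were 0.38 (adjusted p = 0.209) and 0.35 (adjusted p = 0.219) by limma. As these probes share nearly all their bases, the gap of 0.03 between their changes (exact permutation test, p = 0.3) describes the repeatability of the measurement.

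The 5 detected synthesis genes had a median change of 0.43, beside a median of 0.02 over all detected probes. Per mouse, the median deviation of these genes from the control mean was -0.02, -0.0011 and 0.06 in control mice and 0.47, 0.52 and 0.49 in TCE mice. The TCE mice were close to each other on this measure and apart from the control mice. At an unadjusted p under 0.05 in limma, 4 of the 5 passed, where 17.9% of all detected probes did, and 0 of the 5 passed an adjusted p of 0.05, where 2.01% of all did.

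**Figure D2:**
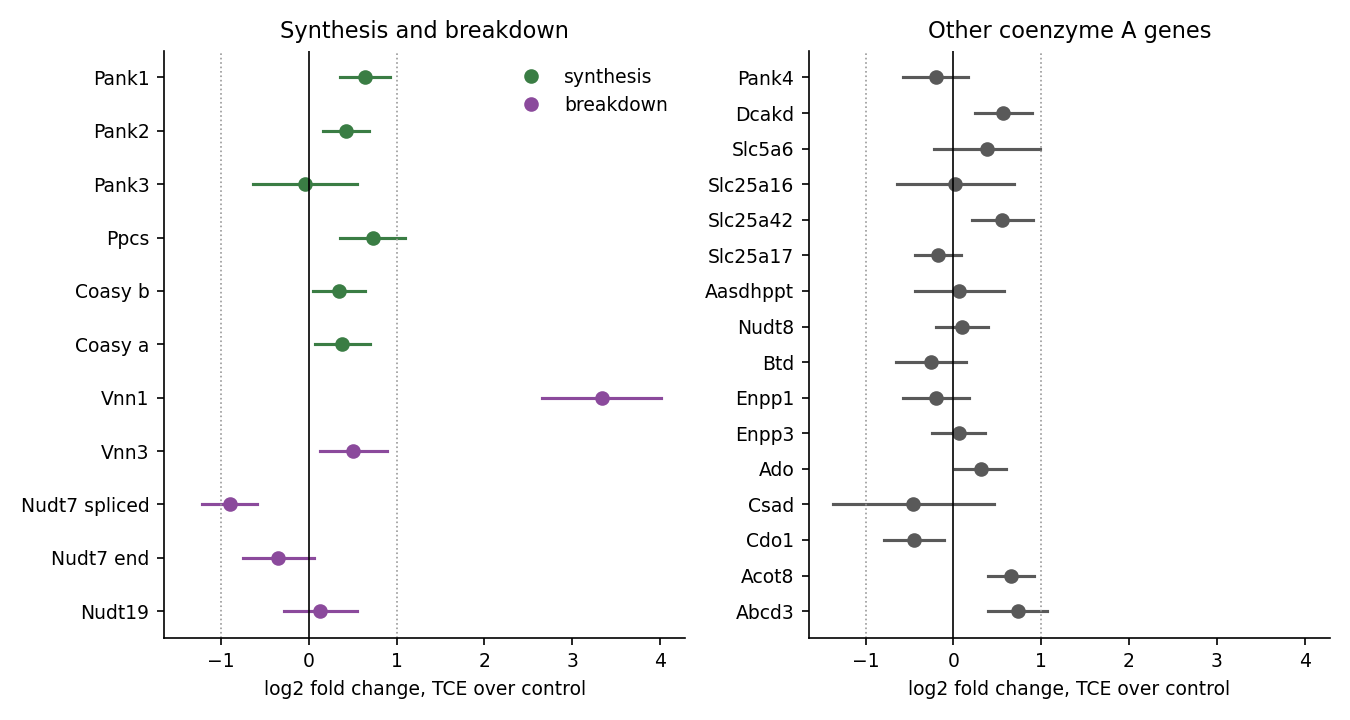
Fitted log2 change (TCE minus control) of each detected member probe with its 95% limma interval, from 3 mice per group. The dotted lines mark a 2-fold change in either direction. The interval of Vnn1, 2.65 to 4.02, lies wholly beyond 2-fold, that of the Nudt7 spliced probe, -1.22 to -0.59, reaches across the line, and those of Pank3, Nudt19 and the Nudt7 end probe include 0.

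In breakdown, Vnn1, the membrane-bound pantetheinase, read 8.99, 8.99 and 8.09 in control and 11.86, 12.32 and 11.90 in TCE mice. Control mouse 3 lay lowest, and every TCE mouse was far above all control mice. Vnn1 rose by 3.33 (SE 0.28, 95% interval 2.65 to 4.02), or 10.1-fold (6.29 to 16.2), with a limma adjusted p of 0.00544, and it ranked 35 from the top among the 22731 changes. Without any 1 of the mice the change was 3.03 to 3.49 and the adjusted p 0.0101 to 0.0264, so the call was kept in 6 of 6 cases. The call was lost with no filter on dim probes (limma adjusted p = 0.0507) and when the test of the study's methods was adjusted in the same way (0.0708).

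Vnn3, whose product is a pantetheinase too, read 11.31, 11.30 and 10.87 in control and 11.72, 11.73 and 11.56 in TCE mice. The groups did not overlap, and control mouse 3 was again the lowest. The change was 0.51 (SE 0.16, 95% interval 0.13 to 0.89), or 1.42-fold, with a limma adjusted p of 0.175. Vnn1 minus Vnn3 was -2.32, -2.31 and -2.78 in control and 0.14, 0.60 and 0.35 in TCE mice. This difference moved by 2.83, and all TCE mice were above all control mice. The exact permutation test gave p = 0.1, the smallest it can give (adjusted p = 0.167 over 5 pairs), and the pair was chosen after its values were seen. The change of Vnn1 minus that of Ppcs, chosen in the same way, was 2.61 with the same p of 0.1.

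Nudt7, the main coenzyme A diphosphatase of liver peroxisomes, read 14.33, 14.40 and 14.31 in control and 13.24, 13.52 and 13.58 in TCE mice with the spliced probe. All TCE mice were below all control mice. The change was -0.90 (SE 0.13, 95% interval -1.22 to -0.59), or 1.87-fold lower, with a limma adjusted p of 0.0301. At that adjusted p alone, without a minimum fold, 0.576% of all detected probes were lower. The adjusted p was 0.0540 to 0.134 with each mouse left out, so it stayed under 0.05 in 0 of 6 cases, while the change stayed between -0.97 and -0.80. With normexp background correction the change was -1.02 with a limma adjusted p of 0.0194, which is past both parts of the threshold.

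The end probe of Nudt7 read 16.09, 15.61 and 16.10 in control and 15.61, 15.49 and 15.65 in TCE mice. Its groups overlapped, since control mouse 2 lay among the TCE mice. The change was -0.35 (SE 0.17, 95% interval -0.75 to 0.05), with a limma adjusted p of 0.342. The spliced minus the end probe was -1.76, -1.20 and -1.79 in control and -2.37, -1.97 and -2.07 in TCE mice. The difference moved by -0.55 without overlap of the groups (exact permutation p = 0.1, the smallest possible, adjusted p = 0.167 over 5 pairs). By the rule that the brighter probe stands for a gene, Nudt7 is represented by the end probe and is not counted as changed. In 2260 genes, detected probes were at least 500 bases apart by their listed transcript positions. There the probe listed upstream exceeded the one listed downstream in change by a median of 0.02. Of these genes 7.74% were at or below the value of Nudt7. Whether the positions of a gene's probes refer to the same transcript was not tested.

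**Figure D3:**
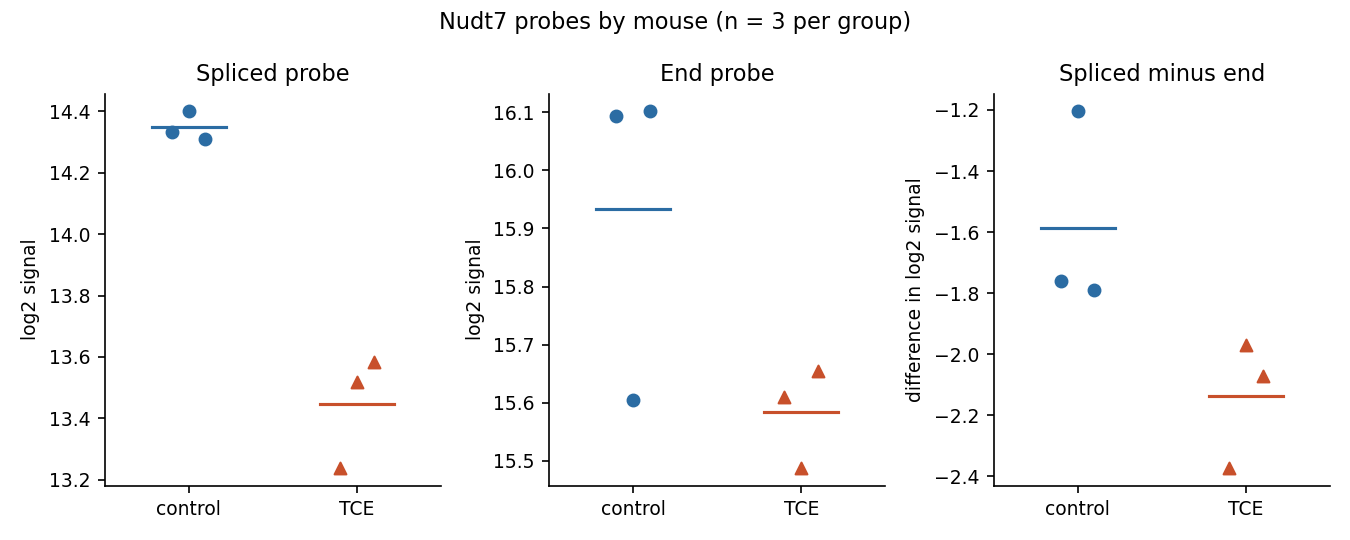
Log2 intensity of the Nudt7 spliced probe and the Nudt7 end probe, and their difference, in each of the 6 mice. Points are mice and bars are group means, and the axes do not start at 0. The spliced probe is at 14.31 to 14.40 in control and 13.24 to 13.58 in TCE mice, while the end probe of control mouse 2, at 15.61, lies within the TCE range of 15.49 to 15.65.

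Nudt19 (A_51_P111952, at chr7:36332321-36332380), a peroxisomal relative of Nudt7 known for its abundance in kidney, read 13.56, 13.23 and 13.21 in control and 13.71, 13.46 and 13.22 in TCE mice. The groups overlapped. The change was 0.13 (SE 0.17, 95% interval -0.29 to 0.55), with a limma adjusted p of 0.736, and the interval excludes a 2-fold change in either direction.

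The 4 breakdown genes had a median change of 0.32, with 1 of 4 called (Vnn1) and 2 of 4 (Vnn1 and Vnn3) higher without overlap, beside 1.03% and 15.5% of all detected probes. Their median deviation per mouse was 0.19, 0.02 and -0.21 in control and 0.47, 0.35 and 0.14 in TCE mice. Unlike the synthesis genes, these medians overlapped, since control mouse 1 was above TCE mouse 3. The breakdown genes thus spread from -0.35 to 3.33 by the probe that stands for each gene, and the synthesis genes from -0.04 to 0.73. No test over either list was made.

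**Figure D4:**
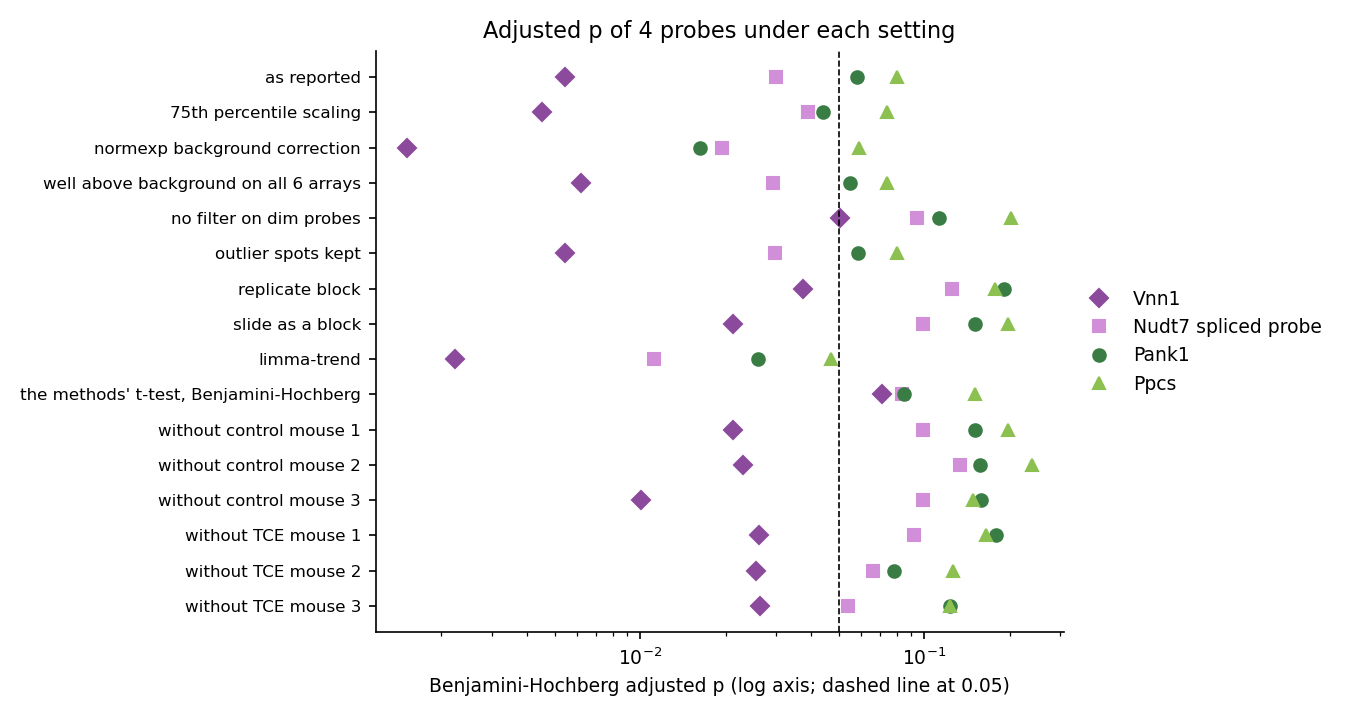
Adjusted p of Vnn1, Pank1, Ppcs and the Nudt7 spliced probe as reported and under each alternative setting (log axis), from limma except where the methods' test is named, with a line at 0.05. Of 15 alternatives the adjusted p was under 0.05 in 13 for Vnn1, 5 for the Nudt7 spliced probe, 3 for Pank1 and 1 for Ppcs. The slide block and the fit without control mouse 1 gave identical values, and both are counted.

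Genes next to the pathway were taken from a list of 16, all detected. Many have roles in uptake, transport or use of coenzyme A and its parts. The list also holds relatives of the synthesis enzymes and of the vanins, a mitochondrial coenzyme A diphosphatase and ecto-pyrophosphatases. Acot8, a peroxisomal acyl-CoA thioesterase, was the only gene of these with an adjusted p under 0.05, a level that 1.43% of all detected probes passed in the upward direction, and 0 reached 2-fold as well. Acot8 read 11.36, 11.50 and 11.51 in control and 12.14, 12.14 and 12.06 in TCE mice. All TCE mice were above all control mice. The change was 0.66 (95% interval 0.40 to 0.92, adjusted p = 0.0413 by limma), and a second probe gave 0.79 (adjusted p = 0.0415). Without any 1 of the mice the adjusted p was 0.0827 to 0.154, so Acot8 passed in 0 of 6 cases. Abcd3, a carrier of acyl-CoA into peroxisomes, differed by 0.73 (adjusted p = 0.0645). Dcakd, a relative of Coasy by sequence, differed by 0.57 (adjusted p = 0.102), and Slc25a42, a mitochondrial coenzyme A carrier, by 0.56 (adjusted p = 0.123). Their TCE mice too were above all control mice, without passing the limma test. Of the 16, 5 were higher and 2 were lower without overlap, beside 15.5% and 10.2% of all detected probes. Their median change was 0.07, with 0.03 without TCE mouse 2 and 0.12 with scaling to the 75th percentile.

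By the root mean square difference over the 6 mice in log2 deviation from the control mean, among 13275 genes, the nearest to Vnn1 were Cyp4a31, a fatty acid hydroxylase (0.20), Cd36, a fatty acid uptake receptor (0.32), Plk1, a mitotic kinase (0.33), and Rufy4 (0.35). Their changes were 3.17, 2.96, 3.61 and 3.62, with limma adjusted p of 0.00109, 0.00301, 0.00373 and 0.00176. The nearest to Ppcs were Rnf152 (0.06), Cox19 (0.06), Trpv2 (0.07) and 5031439G07Rik (0.08), and none of these 4 passed an adjusted p of 0.05. All these genes were picked for values close to those of Vnn1 or Ppcs, so changes of like size follow from the choice.

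Markers of other liver cell types were measured beside these genes. The summed level of the stellate cell markers was 9.60 to 10.06 in control and 9.01 to 9.46 in TCE mice, without overlap. Of the 5 markers 4 were detected, and the sum also includes Des, which was not. The detected markers moved unequally, Lrat by -1.35, Reln by -1.34, Pdgfrb by -0.17 and Hand2 by 0.39. Reln read 8.57 in control mouse 1 but 6.41 and 6.38 in control mice 2 and 3. Lymphocyte markers summed to 10.92 to 10.99 in control and 10.44 to 10.89 in TCE mice, which lay just below. Of these 6 markers 3 were detected, and they were split. Cd3e moved by -0.63 and Nkg7 by -0.19, but Cd79a by 0.40, with limma adjusted p of 0.275, 0.611 and 0.498. Cd3g and Ms4a1 stayed near background in all mice. The sums for Kupffer, endothelial, bile duct, smooth muscle and neutrophil markers overlapped between the groups, and Epcam and Mpo were not well above background. In each of these lists 0 markers were called. The part of these cell types in the changes of Vnn1, Nudt7 and the synthesis genes was not tested.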

How the data were processed

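Liver RNA of 3 control mice and 3 TCE mice was measured, 1 array per mouse. The authors extracted the spots with Agilent Feature Extraction 10.7.1.1, and the deposited scanner output gives, for 62976 spots, a background-corrected intensity and flags. The authors also deposited the log2 mean of the quantile-normalized values of each group, which matched the means computed here within 0.01 for 99.95% of probes. The 6 columns of detection flags in that table were not used.

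From the scanner output, control spots and spots flagged as outliers (123 to 189 per array) were dropped. The log2 of the remaining intensities was taken without a pseudocount and averaged per probe, and the arrays were quantile normalized. Detected probes, those well above background in every mouse of at least 1 group, were compared with the lmFit and eBayes functions of limma (version 3.58.1, R 4.3.3, two-sided). Files were read with version 1.17.8 of data.table. The study's methods name a t-test, which is an alternative here. Dim signals and the number of mice limit the precision. A gene with several detected probes was represented by the brightest on average.

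The members and lists were chosen with earlier results of these data known. Genes named are the 10 members, and other coenzyme A genes with an adjusted p under 0.05 and up to 3 more by size of change. The 4 genes nearest to the member with the largest change in synthesis and in breakdown are named too. Of the markers, those at background or past the threshold are named. Where the summed level of a list did not overlap between groups, its detected markers are named as well. Of the pairs of probes, Vnn1 with Vnn3, Pank1 with Pank3 and Vnn1 with Ppcs, and the check of probe position, were added after the data were seen. In simulated data (22723 probes, 5 draws, 200 changed) the test recovered 79.6% of 4-fold and 68.2% of 2.8-fold changes, with 6.4 false calls per draw. Smaller changes were not simulated, so these rates do not cover changes of the size seen in the members other than Vnn1. Alternatives covered the scaling, background correction, filters, blocks for replicate number and slide, the variance model, the test and each mouse left out. The sequence of 1 probe is not reported here.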

Additional observations from a re-analysis of the deposited data

How the results depend on the processing

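Of 176 tested values of single probes under alternative settings, 150 kept their direction and their side of a p of 0.05 (adjusted, except in the unadjusted t-test), 12 were weaker, 10 stronger, 6 of these by the unadjusted t-test, and 4 reversed. These counts include both the slide block and the fit without control mouse 1, which gave identical values. The authors' deposited means, which carry no p, gave the same direction for 11 of 11 probes. With the minimum of 2-fold as well, 2 values lost the call, both of Vnn1, and 1 gained it, that of the Nudt7 spliced probe with normexp background correction (-1.02, limma adjusted p = 0.0194). The 4 reversals were all of Pank3 (reported as -0.04): 0.088 with the slide as a block and without control mouse 1, which is alone on its slide, 0.08 without TCE mouse 1 and 0.06 without TCE mouse 3, with -0.27 to 0.088 over all mice left out. Vnn1 kept a change of 3.33 but missed the threshold with no filter on dim probes (adjusted p = 0.0507 by limma) and by the methods' t-test after Benjamini-Hochberg adjustment (0.0708), so that the count of breakdown genes called was 0 in both and 1 otherwise. The Nudt7 spliced probe had adjusted p above 0.05 with no filter (-0.90, 0.0944), the replicate block (-0.90, 0.126), the slide block (-0.91, 0.0988), the adjusted t-test (-0.90, 0.0835) and each mouse left out (-0.97 to -0.80). With no minimum fold 1 other coenzyme A gene was called higher. The cause was not tested.

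Over the whole array 234 probes were called higher and 87 lower. The count higher was 149 with detection on all 6 arrays, 78 with no filter, 56 with the replicate block, 147 with the slide block, 31 with the adjusted and 388 with the unadjusted t-test, and 106 to 175 with a mouse left out. The count lower was 18 with no filter, 7 with the replicate block, 30 with the slide block, 4 with the adjusted and 206 with the unadjusted t-test, 131 with no minimum fold, and 20 to 97 with a mouse left out. Among the fits with a mouse left out, the counts were lowest without control mouse 2 (106 and 20). Same-numbered mice deviated together with correlations of 0.090, 0.0066 and -0.092. Mouse 1 of each group matched its own number best, and the other mice did not. With 3 mice per group, these values cannot tell whether same-numbered mice share more than a number. With the replicate block Vnn1 had an adjusted p of 0.0375.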
